A study of Mus musculus with 6 samples.

Results

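The genes described here are 10 mouse genes of cholesterol efflux, lysosomal cholesterol handling and the liver X receptors (LXR), taken by symbol from the 57180 genes of the deposited count table. All 10 were found and all 10 passed the filter on low counts. They are Nr1h2 and Nr1h3, Abca1, Abcg1 and Apoe, Mylip, Npc1, Npc2 and Lipa, and Soat1. RNA was sequenced from macrophages of white adipose tissue of WT mice on a high-fat diet (HFD), untreated or given magnesium isoglycyrrhizinate (MGIG, a salt of an isomer of the liquorice saponin glycyrrhizic acid), with 3 libraries labelled HFD and 3 labelled HFD+MGIG. The design text of the series names a sort on the surface proteins F4/80 and CD11b, while the protocol in the labels speaks of RNA from the tissue. No age, sex, dose, duration or batch is given. Whether each library is a separate animal is not stated, so the p-values reflect the spread among these 6 libraries, and that spread could be technical.

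Macrophages take up cholesterol with lipoproteins and dying cells. Lysosomal acid lipase (Lipa) frees it from its esters, NPC2 and NPC1 hand it out of the lysosome, and SOAT1 esterifies the surplus for storage in lipid droplets. Oxysterols made from the surplus activate LXR alpha (Nr1h3) and LXR beta (Nr1h2), which bind DNA with a retinoid X receptor and switch on Abca1, Abcg1, Apoe and Mylip. The transporters ABCA1 and ABCG1 load cholesterol onto lipoprotein particles, apolipoprotein E accepts it, and MYLIP is a ubiquitin ligase that curbs lipoprotein uptake.

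Total counts were 14437531 to 16740374 per library in HFD and 2214367 to 4904167 in HFD+MGIG. Receptor, keratin-associated and defensin gene families taken as silent in macrophages (1598 genes) held 0.153% ± 0.113 of counts in HFD and 4.17% ± 1.96 in HFD+MGIG (SD, n = 3). HFD+MGIG 2 stood apart, with the fewest counts, the highest silent-family share (6.43%) and the lowest mean level of 18 macrophage markers (7.56 on the log2 CPM scale, against 8.81 to 9.14 in the other 5 libraries; CPM is a gene's count scaled to a library total of 1000000). The summed CPM of 15 endothelial markers was 2727 to 3155 in HFD and 601 to 1134 in HFD+MGIG, that of 12 adipocyte markers 3867 to 6342 and 1672 to 2448, and that of 12 fibroblast markers 2780 to 4264 and 1401 to 2121. Macrophage markers summed to 18497 to 20629 CPM in HFD and 7994 to 20084 CPM in HFD+MGIG. Lymphocyte markers summed to 47.6 to 78.9 and 63.4 to 199 CPM, and neutrophil and dendritic cell markers to 550 to 677 and 423 to 513 CPM. In these lists 0 markers were at 0 in every library. Total counts, silent-family share and the endothelial, adipocyte, fibroblast, and neutrophil and dendritic cell sums did not overlap between the groups, while the macrophage and lymphocyte sums did. Their part in the results was not tested. In bulk RNA, fewer cells of a type and less RNA per cell cannot be told apart.

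Of the 10 genes, 3 were lower in HFD+MGIG over all 23053 genes tested, both LXR genes and Abcg1, and 0 were higher (edgeR's quasi-likelihood test with Benjamini-Hochberg adjustment, threshold 0.05). Lower calls made up 17.8% of all genes tested and higher calls 43%. All 10 log2 fold changes (HFD+MGIG over HFD) were below 0, from −1.31 for Nr1h2 to −0.22 for Apoe, with 5 at an unadjusted p under 0.05. The shares of all genes tested below 0 and under that p are not given. Neither count is therefore read as particular to the 10 genes. The median of the 10 genes was −0.95, against 0.38 over all genes tested. The values are also set beside 2606 protein-coding genes whose mean level over all 6 libraries lay above the silent-family signal by the margin given next, called background-limited genes here. In the same fit these had a median of −0.91, close to that of the 10 genes, and 43% of them were lower. DESeq2 also called 3 of the 10 lower, with Abca1 in place of Nr1h3 (background 20.2%), and limma voom called 6, Abca1, Abcg1, Nr1h2, Lipa, Soat1 and Mylip (background 29.9%).

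The background-limited genes were chosen with a background bound. It is the count per kb below which 90% of the silent-family genes of a library fell, times the exon length of the gene, and a gene entered if its mean bound was at most 0.25 of its mean CPM over the 6 libraries. In HFD all 10 genes stood above the bound in all 3 libraries. In HFD+MGIG only Apoe, Npc2 and Lipa did, Abcg1 and Npc1 were under it in all 3 libraries, and the other 5 genes were under it in HFD+MGIG 2. Apoe, Npc2, Lipa, Abca1, Nr1h2 and Mylip entered the set. The margin was met on the mean of both groups, and in HFD+MGIG alone the mean bound was over 0.25 of the mean CPM for 1585 of the 2606 genes, for 3 of these 6 (Abca1, Nr1h2 and Mylip) and for 121 of the 163 genes called lower in the set. A gene high in HFD could thus enter through HFD, which favours genes that are lower in HFD+MGIG. Refitted within it, where the median log2 fold change was 0.030, 0 of these 6 were lower and 0 higher in edgeR. Over the set, 6.25% were lower and 4.45% higher at the same adjusted threshold. Of the 6, 2 had an unadjusted p under 0.05 (Apoe and Npc2), a count for which no share over the set is given. DESeq2 and limma voom each called Apoe and Npc2 higher (backgrounds 7.14% and 8.48%).

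**Figure D1:**
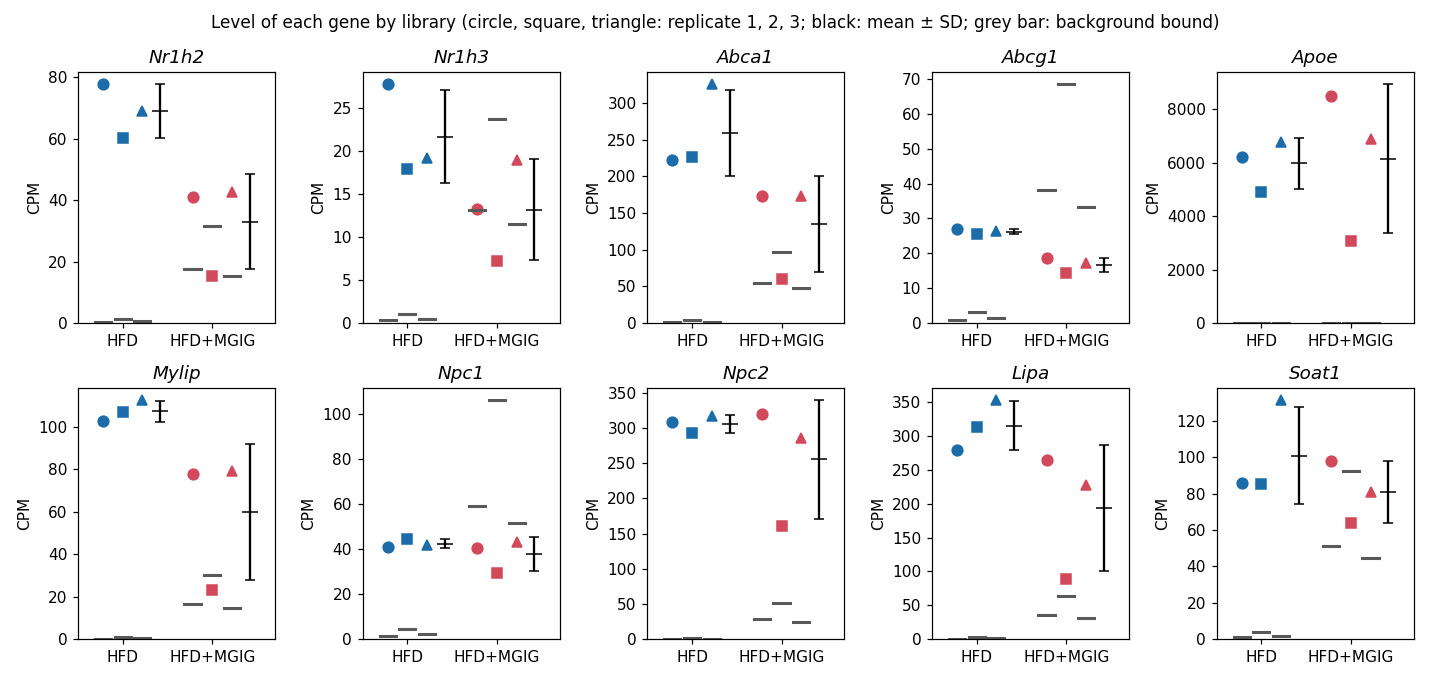
Level in CPM of each of the 10 genes (one panel per gene, y axis from 0) in the 3 HFD (blue) and 3 HFD+MGIG (red) libraries, with the group mean ± SD in black and each library's background bound as a grey bar. In Abcg1 and Npc1 every HFD+MGIG point lies under its bar, while Apoe lies far above it, and HFD+MGIG 2 (red square) is the lowest point of every gene.

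Nr1h2, which encodes LXR beta, the receptor present in most cell types, lies on chromosome 7 (mm10, 44549616 to 44553951, minus strand). It had 77.9, 60.2 and 69.0 CPM in HFD 1, 2 and 3 against 41.0, 15.4 and 42.8 in HFD+MGIG 1, 2 and 3. Every HFD library was above every HFD+MGIG library. The log2 fold change was −1.31 (SE 0.406, adjusted p = 0.0150 by edgeR over all filtered genes), and the call was also made with any single library left out (adjusted p = 0.00105 to 0.0349 by edgeR). In the background-limited fit it was −0.41 (SE 0.198, adjusted p = 0.245 by edgeR), not past the threshold, but −1.04 and called with library totals in place of TMM (adjusted p = 0.0114 by edgeR), and with scaling to the macrophage markers it was −0.61 (adjusted p = 0.0982 by edgeR).

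Nr1h3, which encodes LXR alpha, the receptor enriched in macrophages, liver and fat, lies on chromosome 2 (mm10, 91184061 to 91202834, minus strand). Its counts were low in HFD+MGIG, at 55, 16 and 93 in HFD+MGIG 1, 2 and 3, against 465, 259 and 309 in HFD. As CPM this was 27.8, 17.9 and 19.2 with HFD alone against 13.3, 7.23 and 19.0 with MGIG. HFD+MGIG 3 was above HFD 2, so the groups overlapped. The log2 fold change was −0.95 (SE 0.375, adjusted p = 0.0430 by edgeR), and the call was lost without HFD 1 (adjusted p = 0.110 by edgeR), HFD 3 (0.0676) or HFD+MGIG 1 (0.0617) and in DESeq2 (0.0652) and limma voom (0.0597). It was lost as well with library totals (adjusted p = 0.124 by edgeR), DESeq2's size factors (0.0568), a filter of 5 CPM (0.184) or scaling to the macrophage markers (0.730). Its mean level in HFD+MGIG, 13.1 CPM, was under its mean bound of 16.1 CPM. Its exons share 34 bases with Gm13783 on the same strand, whose reads cannot be told apart there. The ratio of Nr1h3 to Nr1h2 within a library is given with the other ratios.

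Among the efflux genes, both transporters had lower CPM in every HFD+MGIG library than in any HFD library, and Apoe did not. The same pattern held for 23.7% of all filtered genes and for 68.1% of the background-limited genes. Abcg1 was under its bound in all 3 HFD+MGIG libraries, and Abca1 in HFD+MGIG 2. Promoter sequence is shown for Abca1 and Mylip, which were lower relative to the macrophage markers, and for Apoe and Npc2, which were higher. Nr1h2 and Lipa were lower as well, and their promoters are not printed. That of Nr1h2 held none of the motifs marked below, and TATAAA in that of Lipa stood at −239 to −234. No contrast of motifs between the directions is read from the printed windows. The RefSeq promoter table (GRCm38.p6, 250 bases before to 50 after a start) held 11 promoters for 8 of the 10 genes. The windows are chr4:53159846-53160145 (minus strand) for Abca1, chr13:45389492-45389791 (plus strand) for Mylip, chr7:19699139-19699438 (minus strand) for Apoe and chr12:84773063-84773362 (minus strand) for Npc2, each printed 5′ to 3′ on the strand of the gene. Capitals mark the E-box core CACGTG, the GC-box core GGGCGG on either strand, the TATA box TATAAA and, in Abca1, the reverse complement of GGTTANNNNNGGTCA.
Abca1: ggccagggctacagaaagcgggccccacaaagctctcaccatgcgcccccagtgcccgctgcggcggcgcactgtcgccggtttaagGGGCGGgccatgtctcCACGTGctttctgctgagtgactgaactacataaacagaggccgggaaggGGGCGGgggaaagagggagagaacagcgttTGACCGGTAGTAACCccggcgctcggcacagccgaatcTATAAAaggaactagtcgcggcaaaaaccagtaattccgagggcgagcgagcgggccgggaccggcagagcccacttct
Mylip: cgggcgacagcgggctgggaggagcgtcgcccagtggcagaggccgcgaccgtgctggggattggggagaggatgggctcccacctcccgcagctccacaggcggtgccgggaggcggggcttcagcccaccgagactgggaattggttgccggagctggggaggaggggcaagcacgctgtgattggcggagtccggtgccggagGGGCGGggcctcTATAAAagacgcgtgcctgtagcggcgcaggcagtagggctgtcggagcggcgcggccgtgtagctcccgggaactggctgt
Apoe: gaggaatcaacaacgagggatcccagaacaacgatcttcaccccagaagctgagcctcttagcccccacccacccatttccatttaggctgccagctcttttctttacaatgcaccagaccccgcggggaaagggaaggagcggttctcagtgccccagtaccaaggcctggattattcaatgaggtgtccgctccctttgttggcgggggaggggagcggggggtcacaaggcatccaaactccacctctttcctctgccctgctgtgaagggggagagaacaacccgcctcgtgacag
Npc2: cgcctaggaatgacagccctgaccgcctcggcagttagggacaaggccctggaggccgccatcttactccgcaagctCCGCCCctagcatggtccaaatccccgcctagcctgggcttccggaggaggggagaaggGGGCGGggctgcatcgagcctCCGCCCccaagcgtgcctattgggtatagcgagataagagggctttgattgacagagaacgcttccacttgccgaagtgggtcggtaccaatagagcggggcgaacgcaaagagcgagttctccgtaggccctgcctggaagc

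Exact matches on both strands were counted in all 32851 promoters of the table. Abca1 was the gene of the 8 with CACGTG, the E-box core, at −147 to −142 from the start, a motif in 7.15% of all promoters. GGGCGG, the core of a GC box, was in promoters of Abca1, Npc2, Lipa, Soat1 and Mylip, and in 35.7% of all promoters. TATAAA, the TATA box, stood at −29 to −24 in Abca1 and −32 to −27 in Mylip, and was also in the promoter of Lipa and another window of Apoe, and in 13.6% of all promoters. AGGTCA, the nuclear receptor half-site, or its reverse complement TGACCT (1 search over both strands) was in 16.3% of all promoters and in 0 of the 11, as was TCACGTGA, an extended E-box that contains the core above (0.974%). A direct repeat of AGGTCA with 4 bases between, the LXR element, was in 0 of the 11 and in 0.0152% of all promoters. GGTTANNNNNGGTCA, an imperfect form of that repeat that ends in the last 5 bases of AGGTCA, was added after the promoters had been read. It was in Abca1 at −67 to −53 and in 16 of the promoters searched (0.0487%). These are matches of letters, and a missing match says only that the letters are not in the window.

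Abca1, the transporter that passes cholesterol and phospholipid to lipid-poor apolipoprotein A-I, lies on chromosome 4 (mm10, 53030787 to 53159895, minus strand). It had 223, 227 and 326 CPM with HFD alone against 173, 59.6 and 174 with MGIG. HFD 3 was the highest library and HFD+MGIG 2 the lowest, and the groups did not overlap. Abca1 had a log2 fold change of −1.20 (SE 0.504, adjusted p = 0.0553 by edgeR), past the threshold in DESeq2 (0.0249) and limma voom (0.00473) and in edgeR without HFD+MGIG 1 (0.0414) or HFD+MGIG 2 (0.00666), with no filter (0.0272) or with DESeq2's size factors (0.0487). It was −0.31 (SE 0.227, adjusted p = 0.421 by edgeR) in the background-limited fit, and −0.93 and called there with library totals (adjusted p = 0.0437 by edgeR). In HFD+MGIG 2 its 132 counts lay under the bound.

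Abcg1, which moves cholesterol toward mature HDL, lies on chromosome 17 (mm10, 31057675 to 31117988, plus strand). It had 26.9, 25.4 and 26.3 CPM with HFD alone against 18.6, 14.5 and 17.1 with MGIG. The HFD libraries were close together (SD 0.734 CPM) and the groups did not overlap. Of the 10 genes, 5 had CPM groups that did not overlap, Nr1h2, Abca1, Abcg1, Lipa and Mylip, all lower in HFD+MGIG; such a pattern was found in 23.7% of all filtered genes and in 68.1% of the background-limited genes. The log2 fold change of Abcg1 was −0.94 (SE 0.287, adjusted p = 0.0137 by edgeR), and the call was lost without HFD 3 (0.0512) or HFD+MGIG 3 (0.0569), with a filter of 5 CPM (0.0633) and with scaling to the macrophage markers (log2 fold change −0.015). The gene's level in HFD+MGIG (16.7 ± 2.08 CPM, SD, n = 3) was under its mean bound of 46.7 CPM, so its signal there was not separated from the silent-family level.

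Apoe, whose protein is secreted by macrophages, hepatocytes and adipocytes and carries cholesterol, lies on chromosome 7 (mm10, 19696109 to 19699188, minus strand). It had 6231, 4916 and 6773 CPM with HFD alone against 8502, 3058 and 6894 with MGIG. HFD+MGIG held both the highest and the lowest library, so the groups overlapped. Apoe alone made up 82.6% ± 1.73 of the counts of the 10 genes in HFD and 87.9% ± 1.10 in HFD+MGIG (SD, n = 3). Over all filtered genes the log2 fold change was −0.22 (SE 0.601, adjusted p = 0.760 by edgeR), and it was above 0 with library totals (0.042), with a filter of 5 CPM (0.12), without HFD+MGIG 2 (0.13) and with scaling to the macrophage markers (0.51). The background-limited fit gave 0.66 (SE 0.189, adjusted p = 0.0605 by edgeR), past the threshold in DESeq2 (0.0138), in limma voom (0.00570), without HFD+MGIG 2 (0.0130) and after subtraction of the median background (0.0239), but 0.042 with library totals (adjusted p = 0.932 by edgeR). Beside it in that fit, the 16 macrophage markers had a median of 0.29, and Cd68, a lysosomal membrane protein of macrophages, had 0.46 (adjusted p = 0.0573 by edgeR). Of those 16 markers, DESeq2 called 2 and limma voom 7 higher in the same set.

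Mylip, the ubiquitin ligase that curbs lipoprotein uptake, lies on chromosome 13 (mm10, 45389742 to 45412022, plus strand). It had 103, 107 and 113 CPM with HFD alone against 77.8, 23.0 and 79.3 with MGIG. The HFD libraries were within 10 CPM of each other, and all lay above the HFD+MGIG libraries. Mylip had a log2 fold change of −1.09 (SE 0.469, adjusted p = 0.0598 by edgeR), past the threshold in limma voom (0.00966) and in edgeR with no filter (0.0223) or without HFD+MGIG 1 (0.0391) or HFD+MGIG 2 (0.00607), and −0.21 (SE 0.219, adjusted p = 0.576 by edgeR) among the background-limited genes, where library totals gave −0.82 and a call (adjusted p = 0.0484 by edgeR).

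**Figure D2:**
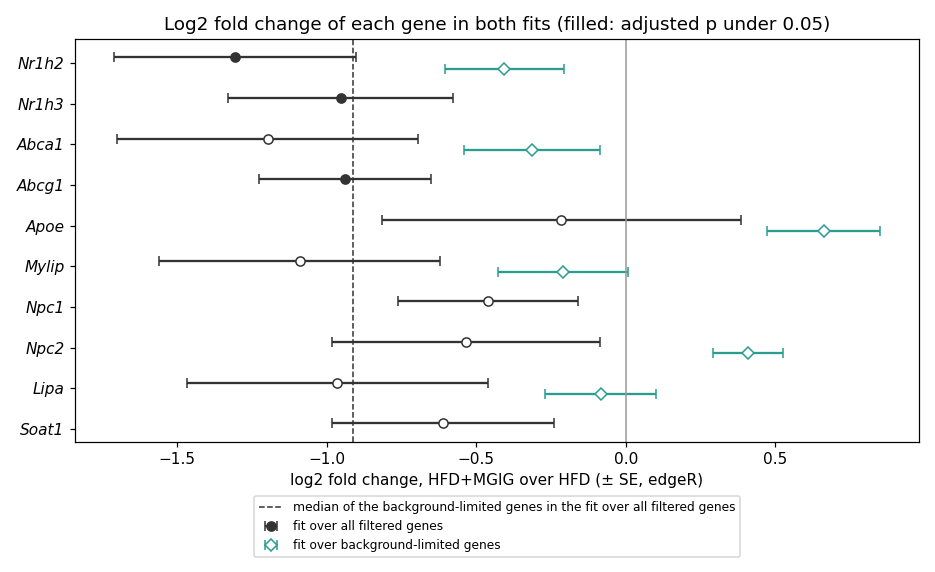
Log2 fold change (HFD+MGIG over HFD, ± SE, edgeR) of the 10 genes in the fit over all filtered genes (circles) and, for the 6 that entered the set, over the background-limited genes (diamonds), filled where the adjusted p is under 0.05. The circles of Nr1h2, Nr1h3 and Abcg1 are filled, no diamond is, and the dashed line at −0.91 is the median of the background-limited genes in the first fit.

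Of the 3 lysosomal genes, 0 were called by edgeR over all filtered genes. Npc1 did not enter the background-limited set. Lipa and Npc2 were not called by edgeR in that fit, with Npc2 at an unadjusted p under 0.05. Lipa, the acid lipase (mm10, chromosome 19, 34492318 to 34527474, minus strand), had 280, 313 and 352 CPM with HFD alone against 265, 89.0 and 227 with MGIG. Its groups did not overlap, although HFD+MGIG 1 came close to HFD 1. The log2 fold change was −0.97 (SE 0.504, adjusted p = 0.110 by edgeR), past the threshold in limma voom (0.00995) and without HFD+MGIG 2 (−0.61, adjusted p = 0.0247 by edgeR), and −0.084 (SE 0.186, adjusted p = 0.799 by edgeR) among the background-limited genes, where it was 0.015 in limma voom and 0.083 without HFD+MGIG 2.

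Npc2, the small soluble sterol carrier of the lysosome lumen (mm10, chromosome 12, 84754562 to 84773152, minus strand), had 308, 292 and 317 CPM with HFD alone against 320, 160 and 286 with MGIG. HFD+MGIG 1 was the highest of the 6 libraries and HFD+MGIG 2 the lowest. Its log2 fold change was −0.54 over all filtered genes (SE 0.448, adjusted p = 0.302 by edgeR; 0.28 with scaling to the macrophage markers). The background-limited fit gave 0.41 (SE 0.116, adjusted p = 0.0605 by edgeR), past the threshold in DESeq2 (0.0239), limma voom (0.0130), without HFD+MGIG 2 (0.0362) and after subtraction of the median background (0.0356), but −0.26 with library totals.

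Npc1, the membrane protein that takes sterol from NPC2, had 41.0, 44.7 and 41.8 CPM with HFD alone against 40.7, 29.4 and 43.4 with MGIG. Apart from HFD+MGIG 2, the libraries ran from 40.7 to 44.7 CPM across both groups. Its log2 fold change was −0.46 (SE 0.303, adjusted p = 0.194 by edgeR), or 0.44 with scaling to the macrophage markers. All 3 HFD+MGIG values were under the bound (mean 72.5 CPM), and 601 bases of its exons overlap Rmc1 and the antisense gene Gm15956 on the other strand, whose reads cannot be told apart without stranded counts.

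Soat1, the enzyme that esterifies cholesterol at the endoplasmic reticulum (mm10, chromosome 1, 156424525 to 156474331, minus strand), had 85.8, 85.5 and 131 CPM with HFD alone against 98.1, 63.7 and 80.7 with MGIG. HFD 3 stood above the other 5 libraries, which ran together across the groups. Soat1 had a log2 fold change of −0.61 (SE 0.373, adjusted p = 0.164 by edgeR), past the threshold in limma voom (0.0207), and 0.31 with scaling to the macrophage markers. Nceh1, which hydrolyses cholesteryl ester outside the lysosome, had 73.2 ± 6.89 CPM with HFD alone against 62.7 ± 6.30 with MGIG (log2 fold change −0.53 over all filtered genes, 0.44 with scaling to the macrophage markers; adjusted p = 0.154 by edgeR in the first).

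Set against the mean log2 CPM of the 18 macrophage markers in the same library, the 10 genes formed 3 groups. The marker mean was itself lower in HFD+MGIG (difference −0.59, two-sided exact permutation p = 0.1), though HFD+MGIG 1 nearly equalled HFD 1 at 8.96 each. Nr1h2 (difference between groups −0.57), Abca1 (−0.47), Mylip (−0.43) and Lipa (−0.25) were lower in all HFD+MGIG libraries than in any HFD library. Apoe (0.52) and Npc2 (0.27) were higher in all of them. Each of these 6 has a two-sided exact permutation p of 0.1, the smallest that 3 libraries against 3 allow, and among the background-limited genes 22.4% did not overlap in the lower direction and 6.87% in the higher direction.

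The library values show how wide these gaps were. Apoe stood 3.65, 3.26 and 3.58 log2 units above the markers in HFD and 4.10, 4.01 and 3.94 in HFD+MGIG, and in this measure HFD+MGIG 2 lay between the other two. Nr1h2 stood at −2.67, −3.08 and −3.03 in HFD and −3.58, −3.54 and −3.38 in HFD+MGIG. Npc2 had −0.69, −0.81 and −0.83 in HFD against −0.63, −0.23 and −0.65 in HFD+MGIG, so HFD 1 came close to HFD+MGIG 3. The bound of Npc2 in HFD+MGIG 1, 2 and 3 was 28.4, 51.2 and 24.9 CPM beside levels of 320, 160 and 286 CPM. The part of silent-family signal in this narrow gap was not tested. The other 4 genes overlapped: Abcg1 differed by −0.021 (two-sided exact permutation p = 1), Nr1h3 by −0.13 (0.6), Npc1 by 0.42 (0.2) and Soat1 by 0.29 (0.5), and for Abcg1, Npc1 and Soat1 HFD+MGIG 2 was the highest library. Without single libraries, the difference of Abcg1 ran from −0.38 to 0.16 and that of Nr1h3 from −0.26 to 0.095.

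**Figure D3:**
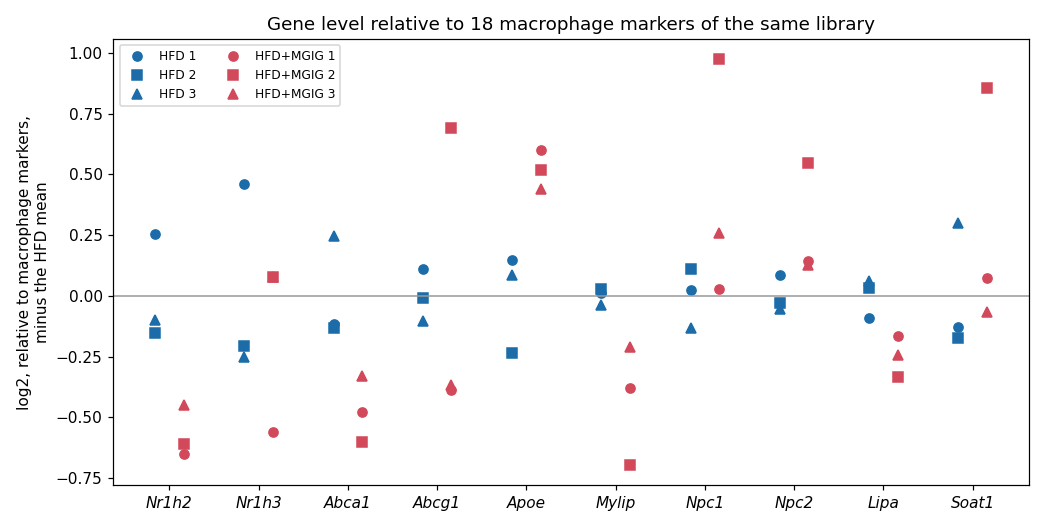
Log2 CPM of each gene minus the mean log2 CPM of 18 macrophage markers in the same library, shown as the distance from the HFD mean of that gene (y axis, log2 units), with 1 point per library. Red points (HFD+MGIG) lie under all blue points (HFD) for Nr1h2, Abca1, Mylip and Lipa and above them for Apoe and Npc2.

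Ratios of counts per kb between genes of one library need no scaling between libraries. For Abca1 to Apoe, the transporter against a sterol acceptor, the log2 ratio was −7.08, −6.71 and −6.65 in HFD and −7.90, −7.95 and −7.59 in HFD+MGIG. The difference was −0.997 (SD 0.232 and 0.197, n = 3 each, two-sided exact permutation p = 0.1; 0.4 after Benjamini-Hochberg adjustment over 8 pairs), with no overlap, and it ran from −1.13 to −0.92 without single libraries. For Lipa to Npc2 the log2 ratio was −0.46, −0.22 and −0.16 in HFD and −0.59, −1.17 and −0.65 in HFD+MGIG, a difference of −0.52 without overlap (two-sided exact permutation p = 0.1, adjusted 0.4). These were the 2 of 8 pairs whose groups did not overlap, against 37% of all pairs of background-limited genes.

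The remaining ratios overlapped between the groups. The balance of the LXR genes, Nr1h3 to Nr1h2, was −1.07, −1.33 and −1.43 in HFD and −1.20, −0.65 and −0.76 in HFD+MGIG (difference 0.41, two-sided exact permutation p = 0.2, adjusted 0.533), or −1.13 with the background bound subtracted. The balance of the transporters, Abca1 to Abcg1, was 2.54, 2.65 and 3.13 in HFD and 2.70, 1.52 and 2.83 in HFD+MGIG, where HFD+MGIG 2 alone lay outside the HFD range on the low side (difference −0.42, two-sided exact permutation p = 0.6, adjusted 0.8; −0.0084 without HFD+MGIG 2). Npc1 to Npc2 differed by 0.14, Soat1 to Lipa by 0.53 and Soat1 to Nceh1 by −0.087 (two-sided exact permutation p = 0.3 to 0.9, adjusted 0.6 to 0.9). With the background bound subtracted, Abca1 to Abcg1 differed by 3.37, Npc1 to Npc2 by −7.56 and Soat1 to Lipa by −2.15, so no direction is read from these ratios. The same subtraction gave −3.99 for Abca1 to Apoe, −0.99 for Lipa to Npc2 and −2.09 for Soat1 to Nceh1.

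Levels per kb of exon put the 10 genes in the same order of means in both groups. In HFD the order was Apoe (2794 ± 447 CPM per kb, SD, n = 3), Npc2 (56.2 ± 2.28), Lipa (46.5 ± 5.38), Mylip (33.2 ± 1.54), Abca1 (24.95 ± 5.64), Nr1h2 (20.6 ± 2.64), Soat1 (10.3 ± 2.69), Nr1h3 (8.60 ± 2.13), Npc1 (3.76 ± 0.173) and Abcg1 (3.59 ± 0.101). Neighbours whose HFD libraries overlapped were Abca1 and Nr1h2, Soat1 and Nr1h3, and Npc1 and Abcg1. In HFD+MGIG, Apoe (2877 ± 1308 CPM per kb) was apart from Npc2 (47.0 ± 15.5), and all other neighbours overlapped except Npc1 (3.34 ± 0.660) and Abcg1 (2.29 ± 0.286), which were both under the bound in all 3 libraries, so that their order there is not read. Nr1h2 was above Nr1h3 per kb in all 6 libraries, though both were under the bound in HFD+MGIG 2.

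Other genes of the pathway were counted in lists. Beside them stand the 17.8% lower and 43% higher over all filtered genes by edgeR. In that fit the background-limited genes had a median of −0.91, and 43% of them were lower. Calls given for the background-limited fit ended when each library's whole bound was subtracted. Of 15 retinoid X receptors and cofactors of LXR, 7 were lower and 0 higher (median −0.90 on the log2 scale). Rxra, the main partner, had 43.3 ± 4.15 CPM with HFD alone against 24.9 ± 4.25 with MGIG (−1.08, adjusted p = 0.00646 by edgeR), the latter under its mean bound of 34.97 CPM, and −0.18 with scaling to the macrophage markers (adjusted p = 0.739 by edgeR). Ncor1, a corepressor, had 174 ± 13.03 and 113 ± 32.4 CPM (−0.90, adjusted p = 0.0667 by edgeR).

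Of 19 other LXR targets, 10 were lower and 0 higher over all filtered genes (median −1.03), and 2 of 9, Scd1 and Tgm2, were lower among the background-limited genes (median −0.25). Scd1, the stearoyl-CoA desaturase, had 1526, 675 and 1598 CPM with HFD alone against 267, 209 and 337 with MGIG. The lowest HFD library was above every HFD+MGIG library, and the log2 fold change among the background-limited genes was −1.50 (SE 0.325, adjusted p = 0.0248 by edgeR), a call lost in limma voom (0.0973) and without any single library other than HFD 2 or HFD+MGIG 2. Tgm2, the tissue transglutaminase, had 354, 372 and 336 CPM with HFD alone against 144, 62.8 and 135 with MGIG (−0.98, SE 0.136, adjusted p = 0.00713 by edgeR among the background-limited genes), a call kept with any single library left out. The mean bound of Tgm2 in HFD+MGIG, 29.5 CPM, was just over 0.25 of its mean level there of 114 CPM. It thus met the margin of that set through HFD, which favours a lower call. Both genes are also expressed outside macrophages, Scd1 in adipocytes and Tgm2 in endothelium, and the markers of those cells were lower too, at 10 of 12 adipocyte markers (median −1.60) and 14 of 15 endothelial markers (median −1.87) over all filtered genes; their part in the values of Scd1 and Tgm2 was not tested. Srebf1 (25.9 ± 5.54 and 10.7 ± 3.17 CPM, log2 fold change −1.53, adjusted p = 0.00207 by edgeR) and Lpcat3 (47.7 ± 2.95 and 25.9 ± 4.20 CPM, −1.19, adjusted p = 0.00318 by edgeR), LXR targets of lipid synthesis and phospholipid remodelling, were lower over all filtered genes, Srebf1 under its bound in all 3 HFD+MGIG libraries. Both calls ended with scaling to the macrophage markers (Srebf1 −0.72, adjusted p = 0.223 by edgeR; Lpcat3 −0.20, 0.758).

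The list of enzymes of oxysterols and other sterol ligands held 3 lower and 0 higher of 8 (median −0.73), the lower ones being Ch25h, Hsd3b7 and Hsd17b10. Ch25h, the cholesterol 25-hydroxylase, had 25.1 ± 1.93 CPM with HFD alone against 15.2 ± 2.44 with MGIG (−1.02, adjusted p = 0.00809 by edgeR), above its bound in all 6 libraries. Its call was lost with a filter of 5 CPM (0.0538) and with scaling to the macrophage markers (log2 fold change −0.049, adjusted p = 0.949 by edgeR). Cyp27a1, the sterol 27-hydroxylase, had 175 ± 12.4 and 102 ± 47.0 CPM (−1.04, adjusted p = 0.0666 by edgeR; −0.14 among the background-limited genes).

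Of 27 sterol synthesis genes, 9 were lower and 0 higher (median −0.57). Srebf2, their master regulator, had 58.1 ± 6.41 and 31.3 ± 12.1 CPM (−1.16, adjusted p = 0.0121 by edgeR), under its bound in 2 of 3 HFD+MGIG libraries, and −0.34 with scaling to the macrophage markers (adjusted p = 0.439 by edgeR). Insig1, the sterol-sensing retention protein and the 1 gene of this list among the background-limited genes, had 65.1 ± 18.03 and 53.5 ± 29.5 CPM (adjusted p = 0.502 by edgeR in that fit).

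Of 11 lipoprotein receptors, 4 were lower and 2, Vldlr and Lrp8, higher over all filtered genes (median −1.03). Scarb1, the HDL receptor, had 202, 194 and 186 CPM with HFD alone against 80.0, 36.6 and 72.2 with MGIG. All HFD libraries exceeded all HFD+MGIG libraries, and the background-limited fit gave −0.96 (SE 0.129, adjusted p = 0.00688 by edgeR). Its mean bound in HFD+MGIG, 54.4 CPM, was near its mean level there of 62.9 CPM, so it entered that set through HFD. Msr1, a scavenger receptor of macrophages, had 134 ± 13.9 and 137 ± 62.2 CPM, overlapping (0.66, SE 0.172, adjusted p = 0.0441 by edgeR among the background-limited genes, and −0.23 over all filtered genes). That call was lost without any single library other than HFD+MGIG 2, with library totals (0.038, adjusted p = 0.921 by edgeR), with scaling to the macrophage markers (0.0635), with a bound of at most 0.5 (0.0698) and after subtraction of the median background (0.0960). Cd36, the receptor for fatty acids and oxidised lipoprotein, had 5440 ± 452 and 2790 ± 1089 CPM (−1.24, adjusted p = 0.0795 by edgeR). It was past the threshold in DESeq2 (0.00422) and limma voom (0.00269). In edgeR it was so without HFD+MGIG 2 (0.00234) and with scaling to the macrophage markers (−0.47, adjusted p = 0.0258). Among the background-limited genes Cd36 was at −0.32 (adjusted p = 0.223 by edgeR). Lrp1, the large endocytic receptor for apolipoprotein E, had 116 ± 28.7 and 63.0 ± 24.3 CPM (−1.14, adjusted p = 0.0311 by edgeR), with the latter level under its bound. The call of Lrp1 was lost without HFD 1 (0.0872), HFD 3 (0.0551) or HFD+MGIG 3 (0.0966), with a filter of 5 CPM (0.0772) and with scaling to the macrophage markers (−0.39, adjusted p = 0.286 by edgeR).

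Cholesteryl ester and lipid droplet genes held 4 lower and 0 higher of 9 (median −0.84), and lysosomal lipid genes 6 lower and 0 higher of 23 (median −0.83). In the background-limited fit these lists had 0 of 5 and 0 of 12 called in either direction by edgeR, with medians of 0.086 and 0.061 and 1 gene each at an unadjusted p under 0.05; DESeq2 called 0 in both lists, and limma voom 0 and 1. Sterol transfer proteins held 8 lower and 1 higher (Star) of 17 (median −0.78). Of all filtered genes, 20.2% were lower in DESeq2 and 29.9% in limma voom. Beside that, DESeq2 and limma voom called 11 and 12 of the 15 receptors and cofactors of LXR lower. They called 11 and 15 of the 19 other targets and 4 and 5 of the 8 genes of oxysterols and other sterol ligands lower. The same tools called 7 and 12 of the 27 synthesis genes and 5 and 7 of the 11 lipoprotein receptors lower. They called 4 and 7 of the 9 ester genes, 6 and 16 of the 23 lysosomal genes and 7 and 12 of the 17 transfer proteins lower. Higher calls by these tools were 0 or 1 per list, except 2 lipoprotein receptors in both and 2 transfer proteins in limma voom. Over all 23053 genes tested, 10285 were higher in DESeq2 and 10765 in limma voom. Gramd1a, a carrier of sterol from the plasma membrane to the endoplasmic reticulum, had 119, 121 and 120 CPM with HFD alone against 57.8, 27.1 and 54.4 with MGIG. It was lower among the background-limited genes (−0.70, SE 0.128, adjusted p = 0.0135 by edgeR), a call lost without HFD 1 (0.0513) or HFD 2 (0.0641). It entered that set through HFD, with a mean level of 46.5 CPM in HFD+MGIG beside a mean bound of 33.5 CPM.

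The macrophage markers themselves had 0 of 18 called in either direction over all filtered genes by edgeR (median −0.69; 2 lower at an unadjusted p under 0.05, 4 lower in DESeq2 and 6 in limma voom). Of 16 in the background-limited fit 0 were called by edgeR, with 6 higher at an unadjusted p under 0.05. Adgre1, which encodes F4/80, had 515 ± 41.2 and 283 ± 132 CPM (−1.13, adjusted p = 0.0735 by edgeR), and Cd68 had 814 ± 16.99 and 710 ± 255 CPM (−0.47, adjusted p = 0.412 by edgeR; 0.32 with scaling to the macrophage markers). Of 12 fibroblast markers 8 were lower (median −1.09), of 12 lymphocyte markers 1 was lower and 2 higher (median 0.64), and of 11 neutrophil and dendritic cell markers 2 were lower and 2 higher (median −0.52). Among the background-limited genes, 7 of 8 endothelial, 3 of 7 fibroblast and 1 of 6 adipocyte markers were lower by edgeR, beside 6.25% over the set. Dcn, a fibroblast marker, went the other way (log2 fold change 1.08, adjusted p = 0.0768 by edgeR). It was called higher in DESeq2 (0.00768) and limma voom (0.0373). Of the 6 adipocyte markers, DESeq2 called 3 lower and limma voom 0, where Car3, the edgeR call, was lost (0.138). Apart from Plvap, Esam and Car3, the markers called lower by edgeR had a mean bound over 0.25 of their mean CPM in HFD+MGIG. They thus entered the set through HFD, which favours lower calls. Cdh5 and Tie1 had mean levels under the bound there (21.0 CPM beside 26.9, and 23.2 beside 31.5). Of 5 neutrophil and dendritic cell markers 0 were called by edgeR, DESeq2 or limma voom, with 0 at an unadjusted p under 0.05.

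**Figure D4:**
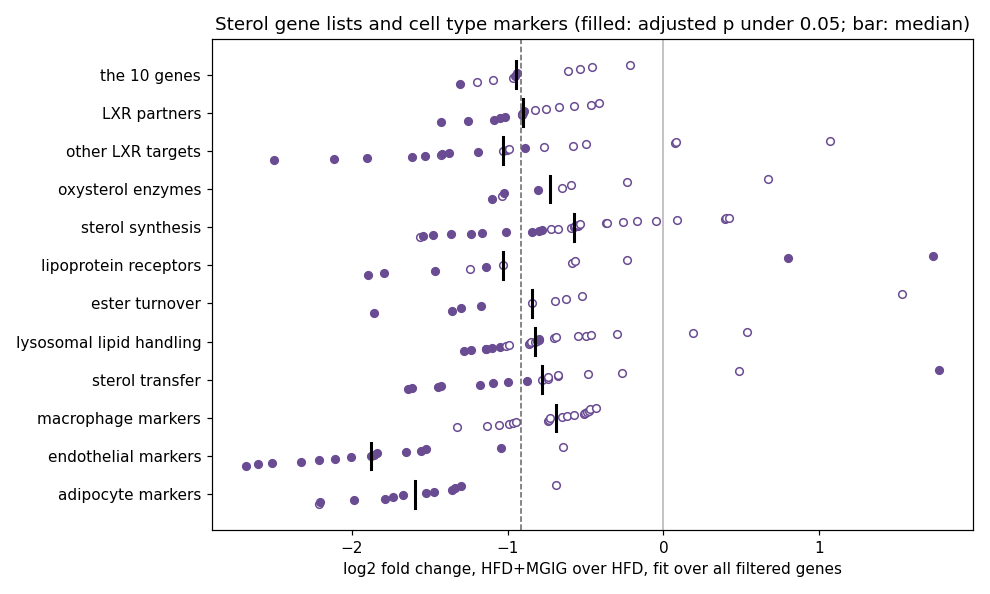
Log2 fold change (HFD+MGIG over HFD, fit over all filtered genes) of each tested gene in the sterol lists and in the macrophage, endothelial and adipocyte marker lists, filled where the edgeR adjusted p is under 0.05, with black bars at the medians. The dashed line at −0.91 is the median of the background-limited genes; the 10 genes centre near it, the median of the macrophage markers lies to its right and the medians of the endothelial and adipocyte markers to its left.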

How the data were processed

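Per the labels' protocols, TRIzol RNA (10 ng) was amplified with the SMART-Seq v4 low-input chemistry. The authors deposited estimated counts, of which 33.3% to 41.8% per library were fractional among detected genes. The submitters' processing notes name fastp, HISAT2, StringTie and mm10, with versions, counting program and strand not given in the sources used here. Amplified cDNA counts are not independent molecules.

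Counts were rounded, and 0 sample columns were left unused. GENCODE M21 (mm10) gave symbols and exon lengths for 51884 of 57180 gene IDs. The silent families were the 1598 protein-coding genes named Olfr, Vmn1r, Vmn2r, Tas2r, Krtap or Defb. Promoters came from RefSeq (GRCm38.p6), without chromosome 18. Genes were tested with edgeR 4.0.16 in R 4.3.3 (quasi-likelihood, robust, group only, TMM, filterByExpr) on all 6 libraries, with Benjamini-Hochberg adjustment over all genes tested. It was refitted on background-limited genes (at least 2 exon blocks, outside the silent families) with TMM factors of their own. Scripts were tested on simulated data. Levels relative to macrophage markers used log2 CPM (prior count 2), and ratios a pseudocount of 0.5. Alternatives were DESeq2 1.42.0, limma 3.58.1 voom with sample weights, other scalings, filters, bounds and background subtraction, the replicate block and each library left out.

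The 10 genes, the gene lists and the tests were chosen with earlier results of these data known. The text names the 10 genes, genes from a preset sterol and macrophage list, the most abundant genes of each list, and list members where 5 or fewer were called in a direction; a part of these was picked after their values were seen. Of the 8 ratios computed 1 is not reported here, nor are some genes of the lists. The p-values are two-sided.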

Additional observations from a re-analysis of the deposited data

How the results depend on the processing

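Over all filtered genes 3 of the 10 genes were lower. The count was 6 with limma voom, 5 with no filter, 1 with at least 5 CPM in 3 libraries, and 0 lower with 1 higher (Apoe) when scaled to the macrophage markers; without single libraries it ran from 1 to 6. With the replicate block it was 5, and the call of Msr1 among the background-limited genes was lost (adjusted p = 0.0712 by edgeR). The numbers were not taken to pair the libraries in the main fits. The correlations of same-numbered deviations were 0.0940, 0.320 and 0.0776, of which 0.320 was the highest of all. The others ran from −0.262 to 0.204, and HFD 1 correlated best with HFD+MGIG 3 (0.204). With 3 libraries per group these values cannot settle whether the numbers mark pairs. Among the background-limited genes 0 were called; the count was 3 lower with library totals, and 2 higher with DESeq2, limma voom or the median background subtracted, 1 higher with scaling to the macrophage markers or a bound of at most 0.1, and 0 to 2 higher without single libraries.

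Log2 fold changes over all filtered genes turned above 0 with library totals for Apoe (0.042) and Msr1 (0.038), with at least 5 CPM for Apoe (0.12) and Msr1 (0.11), and with scaling to the macrophage markers for Apoe (0.51), Npc1 (0.44), Npc2 (0.28), Soat1 (0.31), Insig1 (0.13), Msr1 (0.50), Nceh1 (0.44) and Cd68 (0.32). Without single libraries Apoe ran from −0.61 to 0.13 and Msr1 from −0.57 to 0.11. Among the background-limited genes, library totals gave −0.26 for Npc2, −0.27 for Insig1 and −0.20 for Cd68, limma voom 0.015 for Lipa, which ran from −0.19 to 0.083 without single libraries, and subtracting the 90th percentile background −0.032 for Insig1, 0.18 for Cd36, 0.034 for Cyp27a1 and 0.083 for Adgre1. That subtraction turned the ratios of Abca1 to Abcg1 (3.37), Nr1h3 to Nr1h2 (−1.13), Npc1 to Npc2 (−7.56) and Soat1 to Lipa (−2.15). Without single libraries Soat1 to Nceh1 ran from −0.25 to 0.19, and relative to the macrophage markers Abcg1 ran from −0.38 to 0.16 and Nr1h3 from −0.26 to 0.095. The cause was not tested.

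The median of all filtered genes was 0.38 with TMM, 0.54 with DESeq2's size factors, 0.71 with library totals and 1.52 with the macrophage markers, and calls over all genes were 4109 lower and 9902 higher with TMM, 443 and 9915 with the macrophage markers, 2529 and 10381 with library totals, 6888 and 10765 with limma voom, 1753 and 4550 with at least 5 CPM, 4898 and 18271 with no filter, and 2126 to 5559 lower without single libraries. Among the background-limited genes they were 163 lower and 116 higher, 688 and 64 with library totals, 201 and 53 with the macrophage markers, 229 and 186 with DESeq2, 242 and 221 with limma voom, and 54 to 189 lower and 12 to 154 higher without single libraries; 68 and 38 of 1009 genes were called with a bound of at most 0.1, 235 and 226 of 4799 with at most 0.5, and with the 90th percentile background subtracted 0 and 0 were called, with Scd1, Tgm2, Scarb1, Msr1 and Gramd1a among those lost. Abcg1, Npc1 and Nr1h3 had mean levels under their mean bound in HFD+MGIG.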
